A study of Mus musculus with 20 samples.

Results

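The wheel-running response of hearts labelled knockout for PGC-1α in cardiomyocytes was examined by RNA sequencing. It rests on 10 of the 20 libraries of the series, namely 5 trained and 5 sedentary labelled knockout hearts. All genes with a mean of at least 0.5 FPKM over the 20 libraries were kept, which left 13723 of 25851 genes. FPKM are fragments scaled to transcript length and library size, so levels of different genes can be compared per length. All animals were male mice aged 14 to 16 weeks. Trained mice had a running wheel to use at will for 6 weeks, and the others were kept sedentary. The labels call the genotype a knockout of PGC-1α in cardiomyocytes, and the Cre driver, the deleted part of the gene and the strain are not given in the sources used here. Wild-type mice kept in the same ways, 5 sedentary and 5 trained, served to test whether a change differed from that of wild-type hearts. Each library came from a small piece of heart, and which chamber the piece came from is not given in the sources used here. The series text counts 5 mice per group, so each library was taken as 1 animal.

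PGC-1α, encoded by Ppargc1a, is a transcriptional coactivator. It docks on nuclear receptors such as the estrogen-related receptors and the PPARs, and on the factors NRF1 and GABP, and with them drives genes of the respiratory chain, the citric acid cycle and fatty acid oxidation. Cardiomyocytes take most of their ATP from these pathways. Endurance exercise loads the heart with volume and pressure, to which a healthy heart adapts by growth of its myocytes, while fibroblasts lay down collagen when the load is injurious.

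Depth, recovered from the FPKM values, was 15.3 to 27.2 M reads in the 5 sedentary and 18.3 to 30.4 M reads in the 5 trained hearts. The mitochondrial genome took 17.8 ± 0.433% of the reads in the sedentary group (SD, n = 5) and 15.0 ± 2.38% in the trained group (n = 5), with 11.4% in trained replicate 4. A pair of trained libraries stood apart. Myl7, a myosin light chain of atrial muscle, was at 2055 FPKM in trained replicate 2 and 1355 FPKM in trained replicate 5, and at most 14.8 FPKM in the other 8 hearts. Adipoq, the adipocyte hormone adiponectin, reached 36.7 FPKM in trained replicate 2 and 3.94 FPKM in trained replicate 5, and at most 0.296 FPKM elsewhere. Ucp1, the uncoupling protein of brown fat, was at 117 and 4.42 FPKM in the same libraries. Sedentary replicate 1 was apart in the clock gene Arntl, with 2.50 FPKM against 0.132 to 0.150 FPKM in the other 4 sedentary hearts. For the gene lists below, the count without the 4 trained libraries of the series with Myl7 above 1000 FPKM (a pair of them wild-type) is given where it moved by over 1.5 times and by at least 2 genes.

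Ppargc1a itself (ENSMUSG00000029167, chromosome 5, 51454250 to 51567726 on the minus strand of GRCm38) did not separate the groups. Sedentary labelled knockout hearts had 27.9, 18.8, 23.0, 18.2 and 26.5 FPKM and trained ones 23.0, 26.9, 21.2, 18.7 and 23.0 FPKM. The ranges overlapped almost fully, and the change was -0.01 ± 0.19 (log2 ± SE, 95% confidence interval -0.41 to 0.39, limma adjusted p = 0.978). These levels were not below those of wild-type hearts, which averaged 12.3 ± 2.85 FPKM (n = 5) when sedentary, so the genotype is named here only as labelled. FPKM of the whole gene cannot show whether a part of it was deleted. Gdf15, the stress-induced cytokine named in the title of the series, was at 18.0, 14.9, 11.5, 22.6 and 18.6 FPKM in sedentary and at 36.0, 15.6, 44.9, 48.2 and 12.2 FPKM in trained hearts. Trained replicates 1, 3 and 4 lay above every sedentary heart, and replicates 2 and 5, the libraries with high Myl7, lay within the sedentary range. The change did not pass the test over all libraries (0.69 ± 0.35, adjusted p = 0.153). It passed at 0.96 after TPM scaling (described below, adjusted p = 0.0411), at 0.97 without trained replicate 5 (adjusted p = 0.0309) and at 1.33 without the libraries with high Myl7 (adjusted p = 0.00196).

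Training changed 3892 genes in labelled knockout hearts (28.4% of those tested, limma with Benjamini-Hochberg adjusted p below 0.05), of which 1656 (12.1%) were higher and 2236 (16.3%) lower. An unadjusted p below 0.05 was found for 5335 genes (38.9%). The groups of 5 did not overlap for 3114 genes (22.7%). Most changes were small, since 202 genes rose at least 2-fold (1.47%) and 63 fell at least 2-fold (0.459%). The direction followed the level of the gene. Of the 1961 genes with a mean of 0.5 to 1 FPKM, 257 were higher and 61 lower. Of the 379 genes at 100 to 1000 FPKM, 10 were higher and 222 lower (58.6%), with a median log2 change of -0.36. Among the 35 genes at 1000 FPKM or more, 1 was higher and 23 were lower (65.7%), with a median of -0.54. The median over all genes was -0.02. This split depends on the scale: with each library rescaled to a common sum (TPM), the median of all genes became 0.21, and 4052 genes were higher and 630 lower. Changes below are given on the deposited scale, and the TPM count stands beside a list named in the text where it moved by over 1.5 times and by at least 2 genes. The count of any list is to be read beside the 28.4% of all genes that passed.

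**Figure D1:**
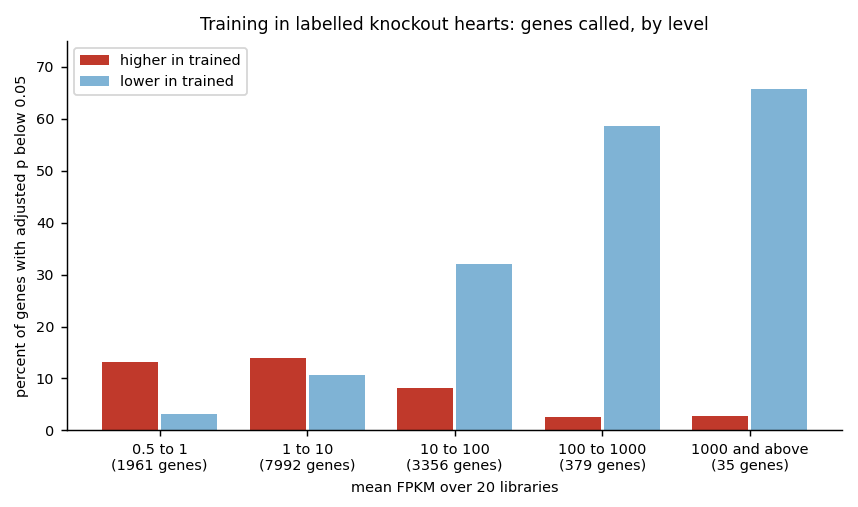
Percent of genes with adjusted p below 0.05 that were higher (red) or lower (blue) in trained than in sedentary labelled knockout hearts, by the mean FPKM of the gene over 20 libraries, with the number of genes in each class under the bars. Genes called lower made up 58.6% of the class from 100 to 1000 FPKM and 65.7% of the class from 1000 FPKM up, and 3.11% of the lowest class.

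Markers of cell types moved with training and belong beside every gene group that follows. Of 10 cardiomyocyte markers 8 fell, and their summed level ran from 22618 to 26460 FPKM in sedentary hearts and from 15409 to 17780 FPKM in trained ones, so the ranges did not overlap. Of all genes at 1000 FPKM or more 65.7% fell, and of those at 100 to 1000 FPKM 58.6%. Of 10 fibroblast markers 7 rose, with sums of 729 to 971 against 1129 to 1618 FPKM, and none fell. Of 9 macrophage markers tested 8 rose, with sums of 266 to 301 against 356 to 644 FPKM. Of 10 endothelial markers 0 passed the limma test or voom and 1 had an unadjusted p below 0.05, and their sums overlapped (221 to 301 and 234 to 288 FPKM). After TPM scaling 2 of the 10 were higher. Of 9 atrial markers tested 0 passed limma or voom and 2 had an unadjusted p below 0.05. Their median log2 change was 2.72, and 0.09 without the libraries with high Myl7, where 2 were higher and 2 lower. White adipocyte markers likewise had a median of 1.63 over 5 genes, and -0.22 without those libraries. Lymphocyte markers were scarcely measured: 1 of 9 T and NK cell genes and 2 of 6 B cell genes passed the level filter, and 0 passed limma or voom, with an unadjusted p of 0.05 or more for each. Mast cell genes were low but 3 of 4 tested rose, with sums of 0.886 to 1.87 against 2.69 to 5.69 FPKM. In pieces of whole tissue, fewer cells of a type and less RNA per cell cannot be told apart. The part these shifts have in the results below was not tested.

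**Figure D2:**
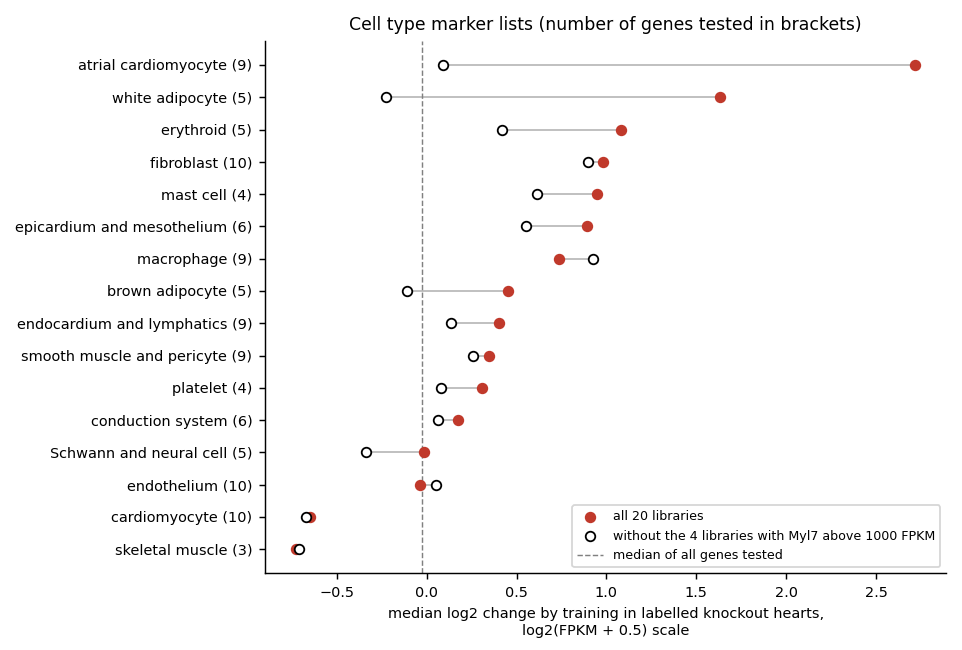
Median log2 change by training in labelled knockout hearts for each cell type marker list with at least 3 genes tested, over all 20 libraries (filled points) and without the 4 libraries with Myl7 above 1000 FPKM (open points). The dashed line is the median of all genes (-0.02), and the atrial list moves from 2.72 to 0.09 while the cardiomyocyte, fibroblast and macrophage lists keep their sign.

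The oxidative machinery of the mitochondrion fell almost throughout. Of the 85 nuclear genes of the respiratory chain and ATP synthase that were tested, 80 fell and none rose, with a median log2 change of -0.65. At 100 to 1000 FPKM, where 58.6% of all genes fell, 62 of 65 of these genes did. In complex I, which takes electrons from NADH, 35 of 36 nuclear subunits fell, with changes from -0.87 to -0.36 and a median of -0.66. Ndufs3 (ENSMUSG00000005510, chromosome 2, 90894634 to 90904827, minus strand), a core subunit of its matrix arm, was at 123, 123, 138, 127 and 126 FPKM in sedentary and at 75.1, 76.7, 75.2, 69.3 and 80.0 FPKM in trained hearts. Every trained heart lay below every sedentary heart by a wide margin. The change was -0.76 ± 0.07 (adjusted p = 3.15e-06). Ndufa9 and Ndufv1 followed with -0.69 and -0.78.

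All 14 tested genes of complexes II and III and cytochrome c fell, with a median of -0.61. Uqcrfs1, the Rieske iron-sulfur protein of complex III, was at 610, 601, 656, 612 and 591 FPKM in sedentary and at 386, 385, 378, 354 and 399 FPKM in trained hearts (-0.69 ± 0.07, adjusted p = 3.15e-06). Again the groups were far apart and narrow within. In complex IV, cytochrome c oxidase, 11 of 14 nuclear subunits fell, and the 3 that did not pass were Cox4i2, Cox8a and Cox6a1, named after their values were seen, with -0.06, -0.04 and 0.01. The first is an isoform of lung and hypoxic cells, and the others are widely expressed forms of their subunits. Cox6b1, also widely expressed and picked after its value was seen, fell by 0.65 on the log2 scale. Cox7a1, the striated muscle form of subunit VIIa, fell most. It was at 300.1, 298, 344, 288 and 239 FPKM in sedentary hearts and at 144, 145, 121, 91.7 and 147 FPKM in trained hearts. The change was -1.19 ± 0.14 (adjusted p = 1.09e-05), from a sedentary mean of 294 ± 37.3 FPKM. Sedentary wild-type hearts had 698 ± 75.9 FPKM.

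In the list of ATP synthase and adenine nucleotide exchange, 20 of 21 tested genes fell, with a median of -0.68. Atp5b, the catalytic beta subunit, went from 1125 ± 40.3 to 767 ± 33.6 FPKM (-0.55 ± 0.07, adjusted p = 1.32e-05). Slc25a4, the heart and muscle isoform of the exchanger of ADP and ATP, was at 2072, 1995, 2348, 2040 and 2037 FPKM in sedentary and at 1183, 1169, 1192, 1083 and 1298 FPKM in trained hearts. No trained heart came near the sedentary range, and the change was -0.82 ± 0.09 (adjusted p = 5.23e-06). The sister isoform Slc25a5, picked after its value was seen, was the member that did not pass (-0.11). Of 13 transcripts of the mitochondrial genome 6 fell, the median was -0.49, and mt-Cytb went from 26263 ± 1078 to 18914 ± 3528 FPKM (-0.49 ± 0.13, adjusted p = 0.00858). After TPM scaling 1 of the 13 passed as lower, whereas the nuclear lists of complexes I, II and III, IV and the ATP synthase held 33, 13, 10 and 18 lower genes.

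**Figure D3:**
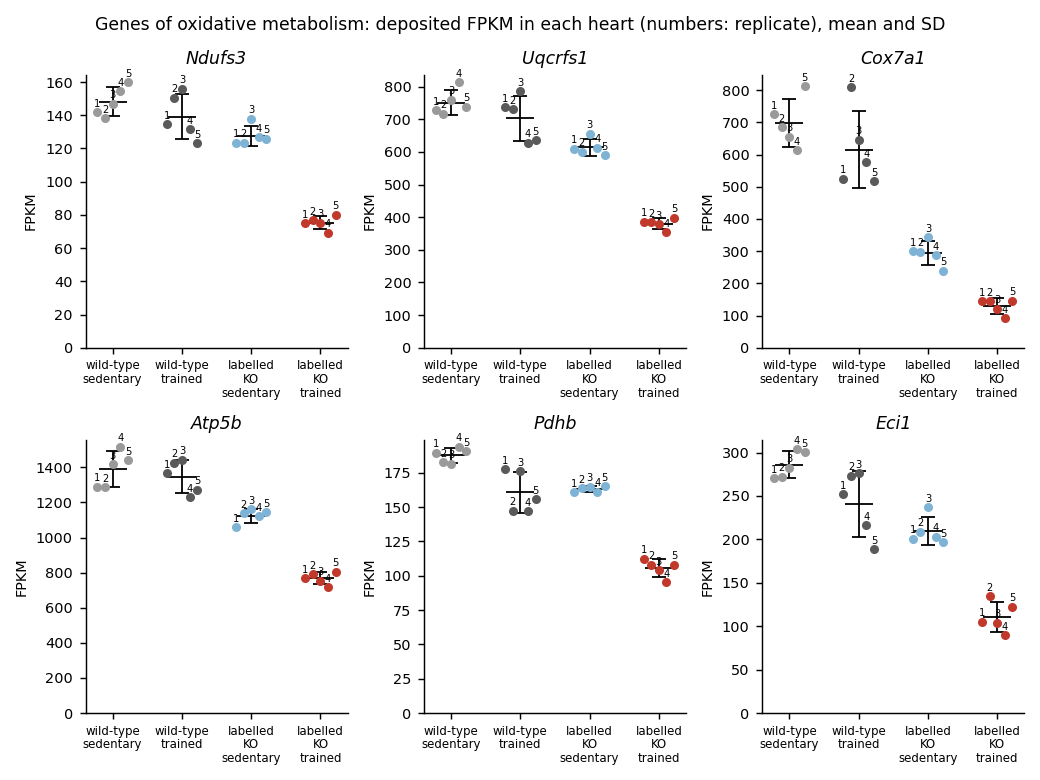
FPKM of Ndufs3, Uqcrfs1, Cox7a1, Atp5b, Pdhb and Eci1 in each of the 20 hearts on linear axes from 0, with replicate numbers beside the points and the mean and SD of each group of 5 in black. Trained labelled knockout hearts lie below all sedentary labelled knockout hearts in each panel, for example at 69.3 to 80.0 against 123 to 138 FPKM for Ndufs3.

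Fuel pathways that feed the chain fell with it. Their counts, here and in the next paragraph, were not split by level. Of all genes at 10 to 100 FPKM 32.0% fell, and of those at 100 to 1000 FPKM 58.6%. Of 23 genes of the citric acid cycle and pyruvate entry 22 fell, with a median of -0.54. Pdhb, the E1 beta subunit of pyruvate dehydrogenase, was at 161, 164, 165, 161 and 165 FPKM in sedentary and at 113, 108, 104, 95.5 and 108 FPKM in trained hearts. The groups were separated by far more than their spread (-0.63 ± 0.06, adjusted p = 3.15e-06). Mdh2, Idh3b and Fh1, enzymes of the cycle, changed by -0.68, -0.70 and -0.69. Of 32 genes of fatty acid uptake, storage and oxidation 25 fell and 1 rose, with a median of -0.63. Eci1, which shifts double bonds of unsaturated fatty acids for beta oxidation, was at 201, 209, 237, 203 and 197 FPKM in sedentary and at 105, 134, 104, 89.9 and 122 FPKM in trained hearts. All 5 trained hearts lay below the sedentary range (-0.92 ± 0.11, adjusted p = 1.15e-05). The gene that rose was Cpt1a, the liver-type carnitine palmitoyltransferase, from 11.4 ± 0.965 to 14.1 ± 0.846 FPKM (0.29 ± 0.08, adjusted p = 0.00846). Cpt2, the inner-membrane partner of that enzyme, fell from 100.1 ± 7.77 to 59.8 ± 6.49 FPKM (-0.74 ± 0.09, adjusted p = 1.88e-05).

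Of 22 genes for branched-chain amino acid and ketone use 20 fell, with a median of -0.54, and after TPM scaling 13 were lower and 1 higher. Ivd, isovaleryl-CoA dehydrogenase of leucine breakdown, went from 73.1 ± 3.00 to 39.5 ± 5.97 FPKM (-0.89 ± 0.11, adjusted p = 1.19e-05). Bcat2, the mitochondrial transaminase that starts the pathway, went from 28.6 ± 2.26 to 17.0 ± 0.623 FPKM (-0.73 ± 0.08, adjusted p = 5.56e-06). Glucose genes were mixed, with 11 of 25 tested lower and 3 higher, and 6 lower and 4 higher after TPM scaling, which moved the median from -0.29 to -0.02. Ldhb, the heart form of lactate dehydrogenase, was at 777, 789, 914, 779 and 766 FPKM in sedentary and at 415, 430, 411, 362 and 465 FPKM in trained hearts. No trained heart exceeded 465 FPKM (-0.95 ± 0.08, adjusted p = 3.15e-06). Slc2a4, the insulin-responsive glucose transporter GLUT4, fell from 139 ± 15.9 to 86.4 ± 5.28 FPKM (-0.68 ± 0.10, adjusted p = 7.03e-05). The 3 that rose, named after their values were seen, were the widely expressed isozymes Pgam1 and Pfkp (0.44 and 0.74) and Pfkfb3 (0.96), which makes the activator of phosphofructokinase. The muscle forms Pfkm and Eno3 fell by 0.57 and 0.76 on the log2 scale.

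Some of the coactivators and factors that drive these genes passed, at a share near the 28.4% of all genes. In the list of PGC-1 coactivators and partner factors, 1 of 27 genes rose and 6 fell, and after TPM scaling 8 were higher and 3 lower, with the median moving from -0.09 to 0.17. Esrra, the estrogen-related receptor alpha and a main partner of PGC-1α, was at 61.1, 61.2, 62.0, 64.3 and 62.4 FPKM in sedentary and at 46.6, 47.6, 49.0, 50.9 and 48.8 FPKM in trained hearts. Both groups were tight and did not overlap (-0.35 ± 0.05, adjusted p = 4.2e-05). The call was lost after TPM scaling (-0.09, adjusted p = 0.487). Sirt3, a mitochondrial deacetylase, fell from 3.55 ± 0.301 to 2.40 ± 0.174 FPKM (-0.48 ± 0.08, adjusted p = 0.000122), and Tfb1m, which modifies the RNA of mitochondrial ribosomes, fell from 2.36 ± 0.192 to 1.51 ± 0.176 FPKM (-0.51 ± 0.10, adjusted p = 0.000887). Pprc1, a coactivator related to PGC-1α, rose from 3.49 ± 0.196 to 4.94 ± 0.546 FPKM (0.44 ± 0.09, adjusted p = 0.00114). Its change in wild-type hearts was 0.44 too (limma adjusted p = 0.0137). Of 12 tested PPAR alpha target genes 4 fell and 1 rose, and after TPM scaling 2 were lower and 1 higher, with the median moving from -0.19 to 0.08. Acot1, a cytosolic acyl-CoA thioesterase, went from 4.72 ± 1.57 to 2.14 ± 0.715 FPKM (-0.99 ± 0.23, adjusted p = 0.00309).

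Mitochondrial upkeep followed the respiratory genes in part. Of 14 mitochondrial chaperones and proteases 10 fell, among them the prohibitins Phb and Phb2 (both by 0.51 on the log2 scale). After TPM scaling 3 of the 14 passed as lower. Of 21 antioxidant genes 9 fell and 5 rose, and after TPM scaling 3 were lower and 8 higher. Sod2, the superoxide dismutase of the mitochondrial matrix, fell from 38.1 ± 0.706 to 25.2 ± 1.61 FPKM (-0.59 ± 0.08, adjusted p = 3.7e-05), and Prdx3, a mitochondrial peroxiredoxin, fell from 147 ± 5.56 to 95.1 ± 6.11 FPKM (-0.63 ± 0.08, adjusted p = 3.04e-05). Sod3, the secreted dismutase, was at 6.84, 10.1, 9.47, 8.82 and 9.77 FPKM in sedentary and at 16.8, 19.5, 20.1, 25.0 and 17.5 FPKM in trained hearts. Each trained heart was above the sedentary range (1.09 ± 0.16, adjusted p = 5.54e-05). Pink1, the kinase that marks damaged mitochondria for removal, was among 3 of 19 autophagy genes that fell, from 273 ± 10.8 to 172 ± 21.8 FPKM (-0.68 ± 0.09, adjusted p = 1.88e-05). The median of that autophagy list was -0.06. After TPM scaling it was 0.21, with 5 genes higher and 2 lower.

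Contractile genes moved in both directions. Of 18 tested sarcomere genes 9 fell and none rose, with a median of -0.45. Among all genes, 58.6% of those at 100 to 1000 FPKM and 65.7% of those at 1000 FPKM or more fell. The sarcomere count was not split by level. Tnni3, cardiac troponin I, was at 1335, 1324, 1697, 1331 and 1314 FPKM in sedentary and at 686, 823, 701, 572 and 914 FPKM in trained hearts. Every trained heart was below every sedentary heart (-0.93 ± 0.12, adjusted p = 2.44e-05). Myl2, the ventricular regulatory light chain, fell from 3039 ± 295 to 1574 ± 194 FPKM (-0.95 ± 0.15, adjusted p = 0.000113). Myh7 (ENSMUSG00000053093, chromosome 14, 54970684 to 54994626, minus strand), the slow beta myosin heavy chain that adult mouse ventricles express little, moved the other way. It was at 84.2, 107, 116, 165 and 112 FPKM in sedentary and at 349, 246, 436, 548 and 193 FPKM in trained hearts. All trained hearts were above all sedentary hearts, with replicates 2 and 5 the lowest of them (1.53 ± 0.24, adjusted p = 9.87e-05). The fast alpha chain Myh6, picked after its value was seen, fell from 5421 ± 597 to 3593 ± 414 FPKM (-0.59 ± 0.12, adjusted p = 0.000976).

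In the list of fetal and stretch-responsive heart genes, 5 of 19 tested rose and 2 fell, with a median of 0.58. Fhl1, a LIM protein of the stretch sensor, was at 44.1, 48.5, 47.7, 55.6 and 49.3 FPKM in sedentary and at 102, 102, 97.9, 129.97 and 87.3 FPKM in trained hearts, which is without overlap (1.07 ± 0.12, adjusted p = 9.97e-06). Without the libraries with high Myl7, and likewise after TPM scaling, 9 of the 19 were higher and 1 lower. Nppa, atrial natriuretic peptide, picked after its values were seen, ranged from 263 to 893 FPKM without and from 1472 to 2734 FPKM with training. These ranges did not overlap, but the pooled spread over the 4 groups was wide and the change of 2.20 ± 1.16 did not pass (adjusted p = 0.17). Of 18 calcium handling genes 5 fell and 1 rose, beside 16.3% and 12.1% of all genes. Pln, phospholamban, the brake on the calcium pump, fell from 623 ± 29.1 to 371 ± 59.1 FPKM (-0.76 ± 0.11, adjusted p = 5.56e-05), and Hrc, a calcium-binding protein of the sarcoplasmic reticulum, fell from 258 ± 15.7 to 144 ± 22.4 FPKM (-0.85 ± 0.11, adjusted p = 2.97e-05). Of 19 tested ion channel genes 3 fell, near the 16.3% of all genes. Without the libraries with high Myl7 5 of the ion channel genes were lower and 1 higher. Kcnip2, a subunit of the channel that carries the early repolarising current, fell from 80.1 ± 6.58 to 45.5 ± 4.11 FPKM (-0.81 ± 0.10, adjusted p = 1.63e-05), and Hcn2, a pacemaker channel, fell from 14.9 ± 2.52 to 7.74 ± 0.941 FPKM (-0.90 ± 0.15, adjusted p = 0.000259). The medians of the calcium and ion channel lists, -0.11 and -0.23, were 0.15 and 0.03 after TPM scaling. On that scale 5 calcium genes were higher and 1 lower, and 2 ion channel genes were higher and 2 lower.

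**Figure D4:**
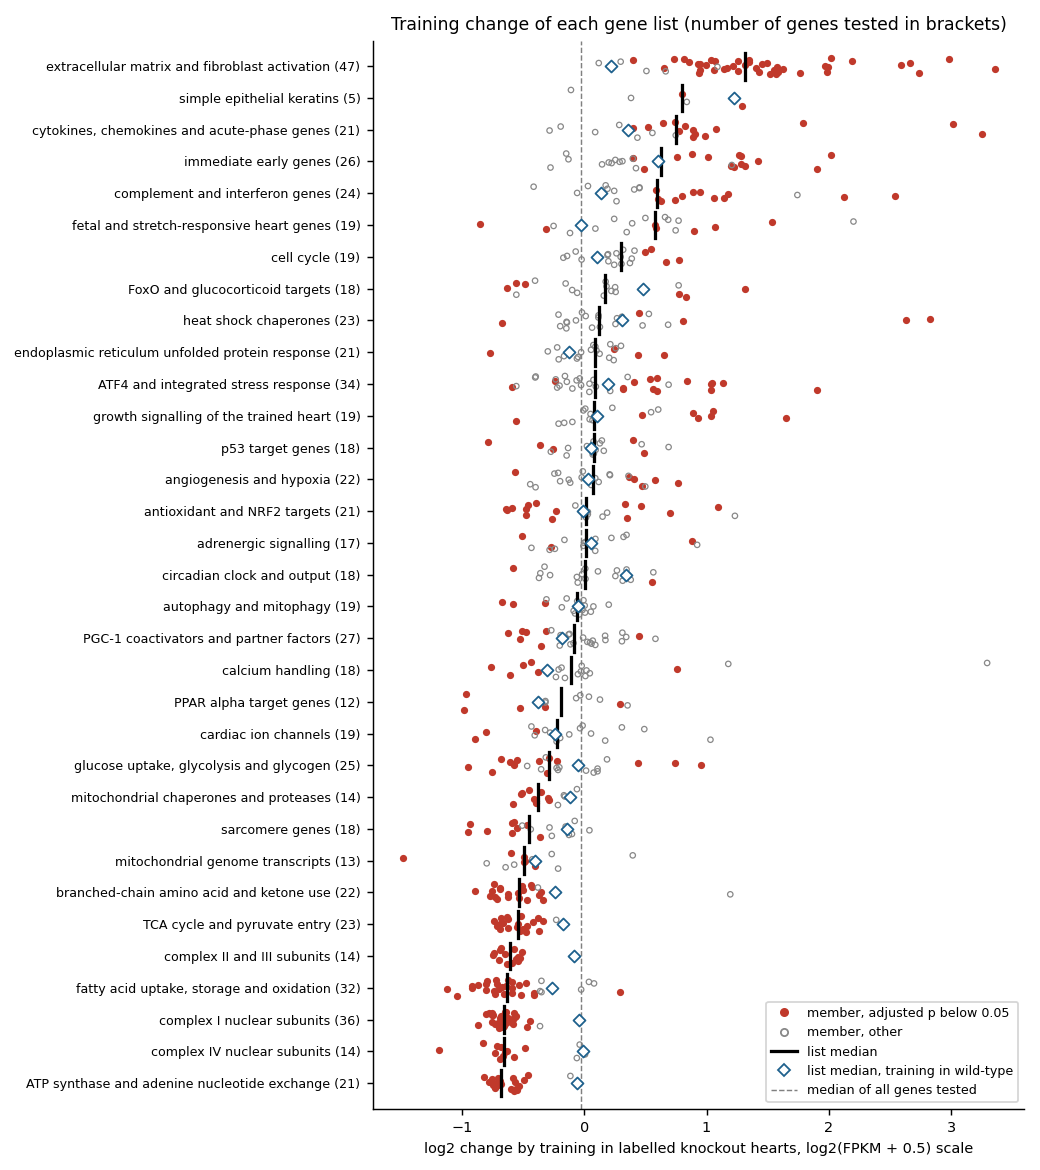
Log2 change by training in labelled knockout hearts for every tested member of each gene list, red where the adjusted p was below 0.05, with the list median (black bar), the list median for training in wild-type hearts (diamond) and the median of all genes (dashed line, -0.02). Respiratory lists cluster between -0.68 and -0.61 and the matrix list lies at 1.31. Under TPM scaling the medians of the PGC-1, PPAR alpha, calcium handling, ion channel and autophagy lists are above 0.

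Matrix genes rose almost throughout. Of 47 tested genes of extracellular matrix and fibroblast activation (48 were listed) 42 rose and none fell, with a median of 1.31, and 38 of them did not overlap between groups. Thbs1 (ENSMUSG00000040152, chromosome 2, 118111876 to 118127133, plus strand), thrombospondin-1, a matricellular protein that can activate latent TGF-beta, was at 2.23, 2.27, 2.26, 2.03 and 1.14 FPKM in sedentary and at 8.85, 8.22, 12.4, 14.3 and 10.4 FPKM in trained hearts. The lowest trained heart was well above the highest sedentary one. The change was 2.19 ± 0.21 (adjusted p = 3.15e-06).

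Postn (ENSMUSG00000027750, chromosome 3, 54361109 to 54391037, plus strand), periostin, a product of activated fibroblasts, was at 4.04, 4.99, 4.67, 7.86 and 6.01 FPKM in sedentary and at 54.6, 14.3, 60.9, 101 and 13.3 FPKM in trained hearts. The trained hearts spread widely, and the lowest, replicates 2 and 5, were still above all sedentary hearts (2.66 ± 0.42, adjusted p = 0.000132). Timp1, an inhibitor of matrix metalloproteases, was at 2.57, 4.43, 4.22, 4.00 and 3.43 FPKM in sedentary and at 50.2, 14.5, 48.6, 57.7 and 17.6 FPKM in trained hearts (2.99 ± 0.36, adjusted p = 1.21e-05). Here too trained replicates 2 and 5 were the lowest of the trained hearts. Comp, cartilage oligomeric matrix protein, had the largest change among the matrix genes, from 0.730, 1.76, 3.38, 7.43 and 3.44 FPKM to 26.2, 15.3, 35.9, 74.0 and 32.9 FPKM (3.36 ± 0.67, adjusted p = 0.000988).

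Collagen genes rose with them. Col1a1, the alpha 1 chain of type I collagen, was at 23.5, 23.5, 22.6, 25.9 and 22.1 FPKM in sedentary and at 74.8, 43.3, 95.5, 120.1 and 50.3 FPKM in trained hearts, with no overlap (1.59 ± 0.21, adjusted p = 2.74e-05). Col1a2, its partner chain, changed by 1.43 ± 0.18 and Col6a2, of the microfibrillar type VI, by 1.06 ± 0.13 (both adjusted p = 1.88e-05). Among genes picked after their values were seen, Lox, which crosslinks collagen, changed by 1.97, Fn1, fibronectin, by 1.58, and Ccn2, a target of TGF-beta and stretch, by 1.57, and each passed. Of the TGF-beta ligands, Tgfb2 went from 2.91 ± 0.379 to 8.01 ± 2.99 FPKM (1.26 ± 0.17, adjusted p = 2.83e-05), whereas Tgfb1 was at 7.47 ± 0.757 and 9.34 ± 1.42 FPKM and did not pass (0.30 ± 0.12, adjusted p = 0.0637). The 5 members of the list that did not pass were Ogn, Tgfb1, Col4a1, Col4a2 and Fmod, with changes from 0.12 to 1.09. Trained replicates 2 and 5 held the 2 lowest trained values in 33 of the 47 matrix genes. They are the libraries with high Myl7, and without those libraries 44 of 47 rose, with a median of 1.57. Beside these changes, 7 of 10 fibroblast markers rose, several of which are matrix genes themselves. Tcf21 and Pdgfra, which mark resident fibroblasts and were picked after their values were seen, did not pass (0.32 and 0.44). All 10 markers had changes above 0, the smallest 0.22, and 9 had an unadjusted limma p below 0.05. Whether the number of fibroblasts changed was not tested.

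**Figure D5:**
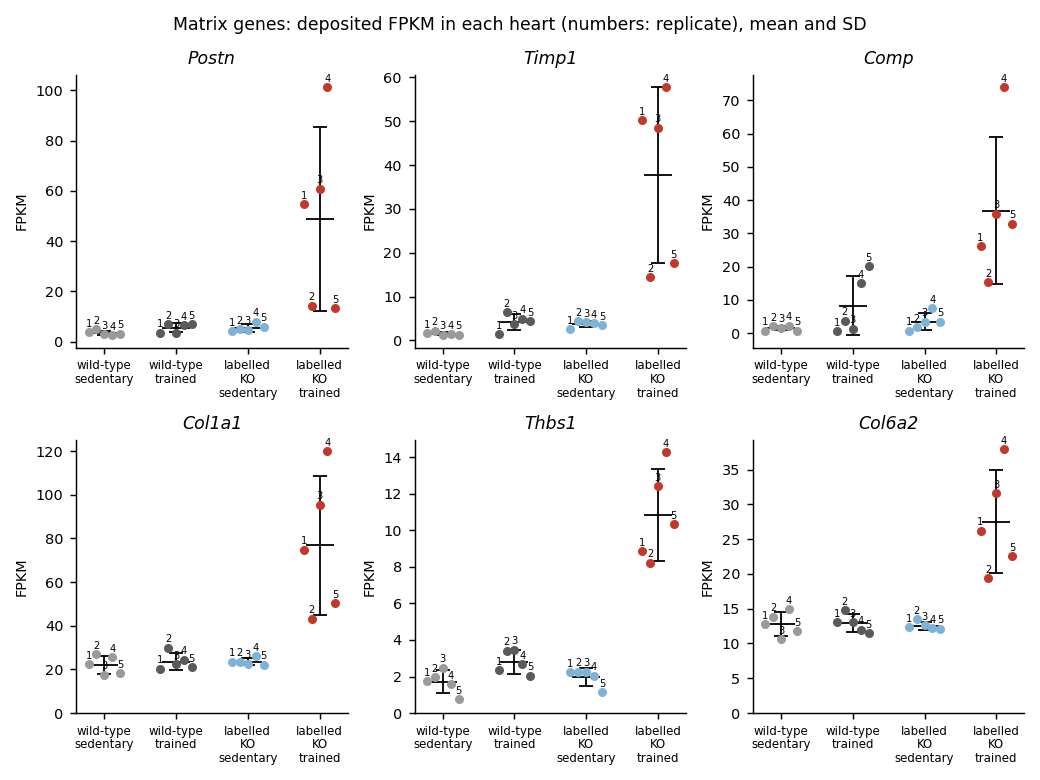
FPKM of Postn, Timp1, Comp, Col1a1, Thbs1 and Col6a2 in each of the 20 hearts on linear axes from 0, with replicate numbers and the mean and SD of each group of 5. All 5 trained labelled knockout hearts lie above the sedentary labelled knockout hearts in each panel, and replicates 2 and 5 are the lowest of them for Postn (14.3 and 13.3 FPKM) and Timp1 (14.5 and 17.6 FPKM).

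Many inflammatory genes rose. Of 21 tested cytokines, chemokines and acute-phase genes (35 were listed) 14 rose and none fell, with a median of 0.75. Ccl8, a chemokine for monocytes and other leukocytes, was at 0.966, 2.14, 0.379, 1.202 and 1.15 FPKM in sedentary and at 39.5, 7.66, 16.8, 12.8 and 9.54 FPKM in trained hearts. Trained replicate 1 was far above the rest, and the groups did not overlap (3.25 ± 0.40, adjusted p = 1.5e-05). Serpina3n, an acute-phase protease inhibitor, was at 5.85, 9.47, 8.74, 8.396 and 8.28 FPKM in sedentary and at 105, 29.1, 104, 146 and 32.9 FPKM in trained hearts (3.02 ± 0.36, adjusted p = 1.15e-05). Genes of signalling by the IL-6 family were among those that rose. Socs3, its feedback inhibitor, was at 1.87, 2.12, 2.57, 2.29 and 1.33 FPKM in sedentary and at 12.2, 5.62, 9.48, 7.82 and 6.87 FPKM in trained hearts (1.79 ± 0.21, adjusted p = 1.06e-05). Stat3, its transcription factor, rose from 17.4 ± 2.52 to 27.3 ± 1.84 FPKM (0.64 ± 0.09, adjusted p = 5.43e-05).

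Of 24 tested complement and interferon genes 12 rose. C3, the central complement component, was at 23.1, 29.97, 26.9, 19.1 and 29.2 FPKM in sedentary and at 169, 86.9, 127, 103 and 90.9 FPKM in trained hearts. Every trained heart was far above the sedentary range (2.12 ± 0.21, adjusted p = 3.39e-06). C1s1 and C1ra, proteases of the first complement step, changed by 1.14 and 1.06. C4b changed by 2.54, which is uncertain because of its close paralog. Of the interferon targets, Ifit1 passed (0.59), while Isg15 and Irf7 did not (0.45 and 0.19), all 3 named after their values were seen. Adgre1, the macrophage surface protein F4/80, was at 4.28, 4.58, 3.35, 3.83 and 4.16 FPKM in sedentary and at 13.7, 6.46, 13.1, 14.3 and 7.75 FPKM in trained hearts. Replicates 2 and 5 were again the lowest trained hearts (1.29 ± 0.18, adjusted p = 5.15e-05), as they were for 8 of the 9 macrophage markers. Csf1r, the receptor for macrophage survival signals, rose from 14.4 ± 1.67 to 24.3 ± 4.77 FPKM (0.72 ± 0.13, adjusted p = 0.000312). Whether the inflammatory changes came with more macrophages or with more RNA per cell was not tested.

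In the list of ATF4 and the integrated stress response, 13 of 34 tested genes rose and 2 fell with a median of 0.08. The members that rose include enzymes that make amino acids and folate intermediates. Pycr1 (ENSMUSG00000025140, chromosome 11, 120635712 to 120643769, minus strand), which makes proline in mitochondria, was at 0.444, 0.581, 0.328, 0.711 and 0.437 FPKM in sedentary and at 1.26, 1.34, 1.41, 1.19 and 1.16 FPKM in trained hearts. The groups were apart, at low levels (0.84 ± 0.13, adjusted p = 0.000133). Asns, asparagine synthetase, was at 0.944, 1.18, 0.803, 1.197 and 1.33 FPKM in sedentary and at 3.52, 3.54, 2.98, 2.20 and 1.84 FPKM in trained hearts (1.04 ± 0.17, adjusted p = 0.000155). Nupr1, a stress-induced chromatin protein, rose from 2.07 ± 0.468 to 5.11 ± 0.847 FPKM (1.13 ± 0.19, adjusted p = 0.000243), and Atf3, a transcription factor of the response, from 3.40 ± 1.81 to 14.8 ± 8.10 FPKM (1.90 ± 0.36, adjusted p = 0.00066). Among members picked after their values were seen, Phgdh and Mthfd2 of serine and folate metabolism passed (1.05 and 1.04), and Ddit3, Trib3 and Chac1, which are tied to cell death, did not (0.09, 0.35 and -0.22). In the endoplasmic reticulum unfolded protein response 3 of 21 genes rose and 1 fell, and after TPM scaling 10 were higher and 0 lower, with a median of 0.35 in place of 0.09.

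Immediate early genes, transcription factors switched on within minutes of a stimulus, rose in 14 of 26 tested and fell in none, with a median of 0.62. Junb was at 7.79, 8.76, 9.16, 7.65 and 7.28 FPKM in sedentary and at 21.2, 21.3, 29.1, 25.5 and 17.2 FPKM in trained hearts (1.42 ± 0.19, adjusted p = 3.64e-05). Fosl2, another AP-1 subunit, was at 2.61, 4.54, 2.46, 2.57 and 2.43 FPKM in sedentary and at 6.75, 7.36, 7.45, 8.81 and 7.82 FPKM in trained hearts (1.28 ± 0.14, adjusted p = 7.54e-06). Both were without overlap. The time between the last run and tissue collection is not given in the sources used here. Of 23 heat shock genes 4 rose and 1 fell, a share of calls below the 28.4% of all genes. The groups of 5 did not overlap for 10 of the 23, with trained hearts above in 8 and below in 2, beside 22.7% of all genes. In wild-type hearts 9 of the 23 rose and 1 fell. After TPM scaling 10 of them were higher and 1 lower. Hspa1a and Hspa1b, near-identical genes of inducible HSP70 whose reads can be split either way, changed by 2.63 and 2.83. In wild-type hearts they changed by 4.16 and 4.38 (limma adjusted p = 0.00371 and 0.00279), and neither passed the interaction. Without the libraries with high Myl7 or high Arntl their changes in labelled knockout hearts were 1.94 and 2.21. Fkbp4, an HSP90 cochaperone, fell by 0.67 on the log2 scale.

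Short promoter stretches were read for genes whose changes are given above. In the integrated stress response list 13 of 34 tested genes rose and 2 fell. Matches were not compared between members that changed and the others. The shares below describe the lists as drawn up, the stress list around ATF4, and say nothing about training. Stretches are shown only for genes that changed and hold a match. Windows ran from 250 bases before to 50 bases after the RefSeq gene start on GRCm38.p6, and both strands were searched. The composite element bound by ATF4 with C/EBP partners was spelled TGATGNAA, where N is any base. It was found in 11 of 30 integrated stress response genes with a window (36.7%), in 1219 of 27025 genes overall (4.51%), and in 0 of 71 respiratory chain and ATP synthase genes. The 4 stress genes described above each held it. They are shown 5′ to 3′ on the minus strand of the chromosome with the matched letters in capitals, which for Nupr1 and Atf3 are the reverse complement. The positions are chr11:120643818-120643877 for Pycr1, chr6:7693214-7693243 for Asns, chr7:126625562-126625591 for Nupr1 and chr1:191183410-191183469 for Atf3.
Pycr1: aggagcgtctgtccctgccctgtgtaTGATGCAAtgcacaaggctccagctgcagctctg
Asns: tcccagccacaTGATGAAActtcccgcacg
Nupr1: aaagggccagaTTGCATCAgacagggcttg
Atf3: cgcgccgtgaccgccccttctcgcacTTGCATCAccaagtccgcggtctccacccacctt

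The NRF1 element, searched as TGCGCA, any base and GCGC in a row, was in 11 of 71 respiratory and ATP synthase genes (15.5%) against 748 of 27025 genes (2.77%). The ETS letters CCGGAAG, the core that GABP binds, were in 19 of the 71 (26.8%) against 2683 genes (9.93%). No searched spelling contains another, and among 30 matrix genes with a window 0 held the NRF1 element and 1 the ETS element. Genes that fell and hold a match include Slc25a3, the mitochondrial phosphate carrier (chr10:91124145-91124207), and Sdhd, a membrane anchor of complex II (chr9:50603910-50603938), for NRF1. For the ETS element they include Ndufs3 (chr2:90904731-90904759) and Slc25a4 (chr8:46211175-46211203). All 4 are shown on the minus strand, with the match in capitals, which for Slc25a3 is the reverse complement. A match describes the letters and no binding was measured.
Slc25a3: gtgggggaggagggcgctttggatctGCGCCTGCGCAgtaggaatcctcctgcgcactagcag
Sdhd: tcgctggggTGCGCACGCGCggtggcagc
Ndufs3: cccgcgtccgcCCGGAAGaagagtcactg
Slc25a4: acccctagctcCCGGAAGcgtcttcgccc

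Growth genes rose in part. Of 19 tested genes of growth signalling in the trained heart 6 rose and 1 fell. Igf1, insulin-like growth factor 1, was at 1.27, 0.889, 1.00, 1.24 and 1.12 FPKM in sedentary and at 3.15, 2.44, 2.71, 3.27 and 2.41 FPKM in trained hearts, with no overlap (1.04 ± 0.17, adjusted p = 0.000158). Its receptor Igf1r rose from 2.41 ± 0.435 to 3.50 ± 0.399 FPKM (0.47 ± 0.10, adjusted p = 0.00162). Fstl1, a secreted glycoprotein of stromal cells, rose from 19.9 ± 1.42 to 68.8 ± 30.9 FPKM (1.65 ± 0.22, adjusted p = 2.98e-05). Cited4, a nuclear factor tied to exercise growth and picked after its value was seen, was the member that fell (-0.56). Of 19 tested cell cycle genes 4 rose, with all 4 overlapping between groups, and after TPM scaling 13 were higher. Mki67, the proliferation antigen, was at 0.603 ± 0.149 and 1.09 ± 0.428 FPKM (0.49 ± 0.18, adjusted p = 0.0436). Its call was lost when any of 7 of the 10 libraries was left out. Without the libraries with high Myl7, 9 of the 19 rose.

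Of 22 genes of angiogenesis and hypoxia 5 rose and 1 fell, a share near the 28.4% of all genes, with a median of 0.07. Without the libraries with high Myl7 or high Arntl 9 were higher and 4 lower. The gene that fell was Vegfb, a growth factor that signals from cardiomyocytes to endothelium, at 188, 183, 187, 186 and 191 FPKM in sedentary and at 121, 129, 125, 126 and 131 FPKM in trained hearts. Both groups were narrow (-0.56 ± 0.06, adjusted p = 9.34e-06). Vegfa, picked after its value was seen, did not pass (-0.21). Of 17 tested adrenergic genes 1 rose and 2 fell, and after TPM scaling 6 were higher and 1 lower. Grk5, a kinase that desensitises beta receptors, rose from 14.2 ± 3.86 to 26.3 ± 5.29 FPKM with overlapping ranges (0.88 ± 0.17, adjusted p = 0.00061), and Prkaca, the catalytic subunit of protein kinase A, fell from 156 ± 11.7 to 109 ± 7.71 FPKM (-0.51 ± 0.10, adjusted p = 0.000661). Of 18 clock genes 1 rose and 1 fell, and the one that rose was Bhlhe40 (0.56). After TPM scaling 4 were higher and 1 lower. Of 18 FoxO and glucocorticoid targets 3 rose and 3 fell, beside 12.1% and 16.3% of all genes. After TPM scaling 6 of these targets were higher and 1 lower. Trim63, the muscle ubiquitin ligase MuRF1, fell from 77.9 ± 5.98 to 52.7 ± 4.59 FPKM (-0.56 ± 0.12, adjusted p = 0.00212). Of 18 p53 targets 2 rose and 3 fell, a share near the 28.4% of all genes, against 5 higher and 1 lower after TPM scaling. Sesn1, a stress-induced regulator of growth signalling, fell from 43.8 ± 7.86 to 24.8 ± 1.59 FPKM (-0.79 ± 0.12, adjusted p = 0.000108).

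Large changes also lay outside these lists. Among the increases, Lgals3, galectin-3, a lectin of macrophages and fibrosis, went from 2.60 ± 0.269 to 19.8 ± 5.597 FPKM (2.68 ± 0.50, adjusted p = 0.000547). Lgals3 also rose in wild-type hearts (2.08, limma adjusted p = 0.0269), and it did not pass the interaction. Hp, haptoglobin, spread from 0.967 to 49.3 FPKM among trained hearts, and its call was lost when any of 8 libraries was left out (2.60 ± 0.96, adjusted p = 0.0489). The decreases were smaller. Scgb1c1, a secretoglobin, was at 98.8, 91.8, 109, 103 and 76.8 FPKM in sedentary and at 40.5, 34.9, 31.0, 26.1 and 46.8 FPKM in trained hearts (-1.42 ± 0.24, adjusted p = 0.000201). Trained hearts were all below sedentary ones and above the mean of sedentary wild-type hearts, 19.6 ± 8.999 FPKM. Snai3, a zinc finger factor of the Snail family, fell from 3.07 ± 0.690 to 0.811 ± 0.297 FPKM (-1.46 ± 0.22, adjusted p = 6.96e-05). Tnni2, the fast skeletal troponin I, fell from 5.16 ± 2.07 to 1.64 ± 0.693 FPKM (-1.38 ± 0.27, adjusted p = 0.000853). Lgals4 and Smco1 fell by 1.34 and 1.31 on the log2 scale, as did the short features Gm23312, mt-Tn and Mir208b, whose reads may come from host or neighbouring transcripts.

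Training changed fewer genes in wild-type hearts, 750 in all (5.47%), of which 403 were higher (2.94%) and 347 lower (2.53%). Of the 1656 genes that rose in labelled knockout hearts 207 also rose in wild-type hearts, which is 12.5% of the first and 51.4% of the second list. Of those that fell 180 were shared, which is 8.05% and 51.9%. These shares compare calls, and a gene without a call in wild-type hearts may still have changed there. Over all genes tested, the training changes of both genotypes had a Pearson correlation of 0.42. The difference between the training changes was tested as an interaction. Of the 3892 genes called in labelled knockout hearts 902 passed it with the same sign. Among all genes tested 1005 passed (7.32%), 319 with a more positive change in labelled knockout hearts (2.32%) and 686 with a more negative one (5%). The respiratory genes stood in the second class: 34 of 36 complex I genes, 12 of 14 of complexes II and III, 11 of 14 of complex IV and 19 of 21 of the ATP synthase list. Their medians in wild-type hearts were between -0.09 and -0.01. After TPM scaling the interaction passed for 6 complex I genes, 3 of complexes II and III, 2 of complex IV and 3 of the ATP synthase list. The median differences of these lists then ran from -0.44 to -0.36. For Ndufs3 the difference was -0.66 ± 0.10 (adjusted p = 0.00462), with wild-type means of 148 ± 8.92 FPKM without and 139 ± 13.7 FPKM with training. Of the 32 fatty acid genes 6 passed with a more negative change (median difference -0.33), and 10 fell in wild-type hearts. Without the libraries with high Myl7 20 of the 32 passed, with a median difference of -0.57, and after TPM scaling 0 passed as more negative and 1 as more positive. Of the 13 mitochondrial genome transcripts 0 passed the limma interaction test, 0 had an unadjusted p below 0.05 and 0 passed by voom.

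Of the 47 matrix genes 26 passed with a more positive change in labelled knockout hearts, and 3 rose in wild-type hearts. Comp, with the largest change of these genes in labelled knockout hearts, did not pass (difference 1.98 ± 0.95, adjusted p = 0.197). Thbs1 went from 1.71 ± 0.624 to 2.79 ± 0.635 FPKM in wild-type hearts, and the difference between genotypes was 1.58 ± 0.29 (adjusted p = 0.00705). For Col1a1 the difference was 1.49 ± 0.30 (adjusted p = 0.00825), for Postn 2.08 ± 0.60 (adjusted p = 0.0419, lost when any of 12 of the 20 libraries was left out) and for Myh7 1.47 ± 0.33 (adjusted p = 0.0152). Prg4, lubricin, a secreted proteoglycan, was at 1.39, 2.67, 2.67, 4.35 and 2.47 FPKM in sedentary and at 21.4, 8.21, 20.8, 15.6 and 14.6 FPKM in trained hearts of the labelled knockout. It was at 2.49 ± 0.600 and 2.66 ± 0.116 FPKM in wild-type hearts (difference 2.26 ± 0.32, adjusted p = 0.00462). Cilp, a matrix protein first known from cartilage, and Fbn1, fibrillin-1, differed by 2.93 and 2.49, and these calls were lost when any of 3 and any of 11 libraries was left out. In the other direction Arrdc2, Depp1 and Shld1 passed the interaction (-2.36, -1.99 and -1.59). Over all libraries they did not pass in labelled knockout hearts. These 3 were at 8.08 ± 8.17, 24.7 ± 15.9 and 12.3 ± 7.03 FPKM in sedentary wild-type hearts and at 17.6 ± 8.36, 65.1 ± 26.6 and 20.9 ± 4.28 FPKM in trained ones. Their interaction calls were lost when any of 14, 10 and 14 libraries was left out. In labelled knockout hearts Arrdc2 and Shld1 passed as lower with array weights (-1.25, adjusted p = 0.00394, and -1.03, adjusted p = 0.000929). Sedentary replicate 1 was the lowest sedentary labelled knockout heart in both, at 6.31 and 12.1 FPKM. Shld1 also passed once that replicate was dropped (-0.93, adjusted p = 0.0283). Leaving out all high-Arntl libraries gave changes of -1.27 and -0.93. Of the 26 immediate early genes 0 passed the limma interaction test, 3 had an unadjusted p below 0.05 and 0 passed by voom. In wild-type hearts 10 of them rose, and the list median was 0.60.

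The interaction counts moved when the libraries with high Arntl were accounted for. These are 4 of 5 sedentary wild-type hearts and sedentary labelled knockout replicate 1. With log2 Arntl as a covariate 11 matrix and 19 complex I genes passed, with median differences of 1.00 and -0.57 against 1.10 and -0.63 over all libraries. Leaving those 5 libraries out leaves 1 sedentary wild-type heart, which is assumed to vary like the other groups, so the number of calls in that fit is not read. Its median differences were 0.90 and -0.50. After TPM scaling 25 matrix and 6 complex I genes passed. Within labelled knockout hearts, 1916 genes were higher and 2506 lower without those libraries. Of 52 lists, 5 then moved by over 1.5 times and by at least 2 genes: the PGC-1 list to 4 higher and 8 lower, the integrated stress response to 13 and 5, the unfolded protein response to 5 and 2, angiogenesis and hypoxia to 3 and 4, and the erythroid markers to 4 and 0.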

How the data were processed

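Poly-A selected, strand-specific libraries of heart RNA were sequenced on an Illumina HiSeq instrument, per the labels' protocols, and carry a single batch label. The authors deposited FPKM values for 25851 genes in each of 20 libraries. The tools DESeq2 1.20.0, featureCounts 1.5.0-p3 and HISAT2 2.0.5 and the mm10 genome are named, per the submitters' processing notes, with no role stated. Whether counting used strand is not given in the sources used here, so antisense and overlapping genes are uncertain. The deposited FPKM times exon length (GENCODE annotation of GRCm38, 25826 identifiers matched) gave whole reads within 0.01 for 24959 genes (96.5%), which amounts to 14.2 to 30.4 M reads per library. The sizes behind the FPKM followed median-ratio factors (ratio 0.997 to 1.00), so no further scaling was applied.

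Group means of log2(FPKM + 0.5) were fitted over the 4 groups with limma 3.58.1 in R 4.3.3 (16 residual degrees of freedom, mean-variance trend, two-sided, Benjamini-Hochberg over 13723 genes with a mean of at least 0.5 FPKM, threshold 0.05; 12128 genes were left out). Fold changes understate those of low genes. Tables were made in numpy 2.4.6 and pandas 2.3.3 under Python 3.11.15. The procedure was tested on simulated data. Lists are described by counts and medians, with no test of a list.

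Named were Ppargc1a, Gdf15, the library markers Myl7, Arntl, Adipoq and Ucp1, and the 10 largest changes per direction among called genes whose higher group averaged at least 1 FPKM and whose groups did not overlap. To these came the 5 largest per direction of the interaction and up to 4 called members of each list by p (2 of lowest p where none was called). Some results are not reported here. Members and lists were chosen with earlier results of these data known. Alternatives were pseudocounts of 0.1 and 1, no filter or a mean of at least 2 FPKM, median-ratio and TPM scaling (with and without the mitochondrial genome), robust eBayes, array weights, the 2 groups alone, a block for the replicate number, each library left out, libraries with Myl7 above 1000 or Arntl above 2 FPKM left out, and either gene as a covariate. A voom fit on recovered reads, and leaving out both sets of libraries, were chosen after seeing the data.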

Additional observations from a re-analysis of the deposited data

Results flagged for a closer look

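Single libraries lay far from the other 4 of their group in 45 cases among the named genes reported here in labelled knockout hearts, where the gap to the nearest library exceeded Dixon's 95% limit for 5 samples (0.71 of the group's range). Chance gives about 1 such case in 20 groups of normally distributed values. The search covered the sedentary and the trained group of most of the 191 named genes, so part of the 45 cases would come by chance. Which of them do cannot be told. Sedentary replicate 1 was the highest in Arntl (2.50 FPKM), Edem1 (3.51 FPKM), Dnajc3 (15.0 FPKM) and Trdn (38.4 FPKM), and the lowest in Shld1 (12.1 FPKM), Clpp (30.1 FPKM), Map1lc3b (26.3 FPKM), Tie1 (21.3 FPKM) and Kcnj8 (13.0 FPKM). Sedentary replicate 3 was the highest in the oxidative genes Ndufs3 (138 FPKM), Slc25a4 (2348 FPKM), Idh3b (219.9 FPKM), Fh1 (139.8 FPKM), Hadh (93.6 FPKM) and Ldhb (914 FPKM), and in Tnni3 (1697 FPKM) and the short feature Gm23312 (5.07 FPKM). Sedentary replicate 4 was the highest in Myl7 (14.8 FPKM), Cilp (16.3 FPKM), Mir143 (3.25 FPKM), Krt80 (0.822 FPKM), the smooth muscle gene Cnn1 (2.17 FPKM) and Dio2 (0.645 FPKM). Sedentary replicate 2 was the highest in Atf3 (6.56 FPKM) and Fosl2 (4.54 FPKM). Sedentary replicate 5 was the highest in the mast cell protease Tpsb2 (0.545 FPKM) and the lowest in Thbs1 (1.14 FPKM).

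Trained replicate 2 was the highest in the adipocyte genes Adipoq (36.7 FPKM), Ucp1 (117 FPKM) and Plin1 (26.5 FPKM) and in Hp (49.3 FPKM), and the lowest in the macrophage gene Cd68 (9.41 FPKM). Trained replicate 5 was the highest in Slc2a4 (95.6 FPKM), Map1lc3b (26.4 FPKM), Tnnt2 (892 FPKM), Kcnip2 (52.8 FPKM), Prkaca (122 FPKM) and Lum (62.6 FPKM). Trained replicate 4 was the lowest in Snai3 (0.301 FPKM), Sdhb (180.2 FPKM), Acat1 (58.3 FPKM) and Trap1 (54.0 FPKM), and the highest in the pericyte gene Cspg4 (7.02 FPKM). Trained replicate 1 was the highest in Ccl8 (39.5 FPKM) and trained replicate 3 in Arntl (0.937 FPKM).

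The training change differed between labelled knockout and wild-type hearts, by the limma interaction test, with a more positive change in labelled knockout hearts for 319 genes and a more negative one for 686. Among named genes the difference was 2.93 for Cilp, 2.54 for Ccl8, 2.49 for Fbn1, 2.29 for Mir143, 2.26 for Prg4, 2.08 for Postn, 2.05 for Serpina3n and 1.93 for Timp1 on the log2 scale. It was -2.36 for Arrdc2, -1.99 for Depp1, -1.59 for Shld1, -1.58 for Nmb, -1.46 for Tmem82, -1.44 for Mir208b, -1.32 for Tnni2 and -1.29 for Gm4956. Mir143 and Mir208b are short features within longer host transcripts, and poly-A libraries do not measure the mature microRNAs. Myh7, within which Mir208b lies, had a difference in the other direction.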

How the results depend on the processing

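Within labelled knockout hearts 1656 genes were higher and 2236 lower. The counts moved by over 1.5 times with TPM scaling (4052 and 630), with TPM scaling without the mitochondrial genome (2872 and 918, where the median of all genes was 0.13) and with array weights (2790 and 3490). Leaving out 1 library gave 1242 to 1678 and 1870 to 2300 genes, voom on recovered reads 1637 and 2165, and the fit without high Myl7 or high Arntl libraries 2293 and 2607. The interaction counts of 319 and 686 were less stable. They were 204 and 425 without a filter, 348 and 58 with TPM, 627 and 66 with TPM without the mitochondrial genome, 2380 and 2661 with array weights, 497 and 800 without the libraries with high Myl7, 83 and 184 with Arntl as a covariate, and 1 and 0 without those with high Arntl, a fit with 1 sedentary wild-type heart left. Leaving out 1 library gave 119 to 611 and 343 to 1087, and 14 of 20 libraries moved a count by over 1.5 times: sedentary wild-type 1 (138 and 366), 2 (133 and 359), 3 (185 and 403) and 5 (532 and 1075), sedentary labelled knockout 1 (611 and 1087), 2 (208 higher), 3 (144 and 343), 4 (202 and 437) and 5 (185 higher), trained wild-type 3 (163 and 401), and trained labelled knockout 1 (143 and 386), 3 (119 and 361), 4 (133 and 371) and 5 (484 higher). The cause was not tested.

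Replicate numbers did not pair the samples: same-numbered libraries correlated at 0.29, -0.09, -0.16, 0.01 and 0.09, and 1 of 5 matched its own number best. With the number as a block 1876 genes were higher and 2399 lower, and in the interaction 455 and 850.

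Over 191 named genes and 27 settings 4911 of 5119 values kept direction and call, 114 lost the call, 62 gained one and 32 changed sign. Ppargc1a, with no call, became 0.26 (TPM), 0.17 (TPM without the mitochondrial genome), 0.061 (array weights), 0.066, 0.048, 0.0093 and 0.054 (without sedentary replicates 1 and 5 and trained 3 and 4; -0.086 to 0.066 without any 1 library) and 0.066 (without high Arntl). Arntl became 0.10 (pseudocount 0.1), 0.042 (TPM), 0.42 (array weights), 0.39 (without sedentary replicate 1), 0.029 and 0.027 (without trained 2 and 5), 0.16 (without high Myl7), 0.39 (without high Arntl), 0.052 (Myl7 covariate), 0.065 (voom) and 0.61 (without both sets). Without high Myl7, and without both sets, Myl7 became -0.68 and -0.94, Adipoq -0.18 and -0.25, Ucp1 -0.034 and -0.042, Plin1 -0.079 and -0.10, and Trac -0.18 and -0.19 (-0.058 with the Myl7 covariate). With TPM Ei24 became 0.0066 and Tie1 0.022. TPM ended the calls of 18 of the 168 called genes, among them Esrra, mt-Cytb, Acot2, S100a1 and Adrb1. With a mean of at least 2 FPKM required, the neutrophil, T and NK cell and mast cell lists had no gene left and give no median. Of 52 lists, counts moved by over 1.5 times and by at least 2 genes in 22 with TPM, in 4 without high Myl7, in 5 without high Arntl and in 18 without both sets.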

Other observations

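Some gene groups moved little or in parts. Of 5 tested simple epithelial keratin genes 2 rose with training in labelled knockout hearts. Krt18, a keratin of simple epithelia, was at 3.88, 3.84, 2.52, 6.79 and 4.34 FPKM in sedentary and at 12.1, 8.98, 10.2, 17.5 and 7.22 FPKM in trained hearts (1.29 ± 0.39, limma adjusted p = 0.0167, and 0.0536 without trained replicate 4), and at 0.403 ± 0.206 FPKM in sedentary wild-type hearts. Wt1, a factor of the epicardium, rose from 0.752 ± 0.124 to 1.64 ± 0.330 FPKM (0.77 ± 0.13, adjusted p = 0.000171), 1 of 6 epicardial genes tested. Scn7a, a sodium channel of glia, rose from 2.66 ± 0.284 to 4.01 ± 0.0965 FPKM (0.52 ± 0.15, adjusted p = 0.0129), 1 of 5 Schwann and neural markers tested.

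Noncoding genes were called lower more often than higher. Of 292 lincRNA genes tested 10 were higher and 56 lower (19.2%), and of 284 antisense genes 8 were higher and 50 lower (17.6%). Among 11805 protein-coding genes 1591 were higher and 1996 lower (16.9%). Haemoglobin and other erythroid markers summed to 228 to 906 FPKM in sedentary and 498 to 2456 FPKM in trained hearts, and 0 of 5 passed limma or voom, with 4 at an unadjusted p below 0.05. After TPM scaling, and likewise without the libraries with high Arntl, 4 of the 5 were higher. The first 3 principal components of the 10 labelled knockout hearts held 39.4, 22.2 and 12.2% of the variance.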
